A study of Mus musculus with 4 samples.

Results

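The antiviral effectors of the type I interferon (IFN) response were examined as a group of 10 genes, Isg15, Usp18, Rsad2, Mx1, Mx2, Oasl2, Ifit1, Ifit2, Xaf1 and Rtp4, in articular cartilage of young and adult mice with and without injury. The genes were chosen by symbol, with earlier results of these data known. All 10 were found among the 24532 genes of the expression table, each once. Gene expression had been measured by RNA sequencing in 4 groups of wild-type C57BL/6 mice. They were sham-operated cartilage and injured cartilage of young mice, labelled 3 weeks old, and sham-operated and injured cartilage of adult mice, labelled 12 weeks old in the titles and 14 weeks old in the age field, while the methods of the study give a younger adult age than either. The labels give day 3 for both young groups and adult injured cartilage, and days 3 to 14 for adult sham cartilage. The labels name DMM surgery (destabilization of the medial meniscus) for the injured samples, whereas the methods of the study describe a full-thickness cartilage injury (FTCI) made with a needle in the groove of the femur of male mice, and "injured" is used here for both. Cartilage of several mice was pooled for each group, so each group was 1 library without a replicate. The values are FPKM, fragments scaled to transcript length and to the number of mapped fragments, so that levels can be compared between genes. No test between single libraries was possible, and every difference given here is one between these libraries. Values of a gene are given for sham and then injured cartilage, young mice first.

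Type I IFNs are cytokines that nearly every cell can make when it senses foreign or misplaced nucleic acid. They bind the receptor IFNAR1/IFNAR2, and the kinases JAK1 and TYK2 pass the signal to a complex containing IRF9 that binds the interferon-stimulated response element (ISRE) in front of responsive genes. The 10 genes are induced by type I IFN, and most of their products are known to act against viruses, while some regulate the response itself.

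Sequence in front of the transcription start was available in the RefSeq promoter table (build GRCm38.p6, the assembly of mm10) for 6 of the 10 genes, as windows of 300 bases, 250 before and 50 after the start. Usp18, Mx1, Mx2 and Rtp4 had no entry. The core letters of the ISRE, searched on both strands as GAAA, any 2 bases and GAAA again (TTTC, any 2 bases and TTTC on the other strand), occurred in the windows of Isg15, Rsad2 and Ifit1, and did not occur in those of Oasl2, Ifit2 and Xaf1. After the starts of the Oasl2 window and of 1 Ifit2 window, the first bases occurred in no GENCODE transcript of the gene. An absence there is therefore less certain. The 3 matching stretches are shown because they hold the letters of the element through which the response is known to act. Capitals mark the bases covered by a match. Each is printed 5′ to 3′ on the strand of its gene and ends before the start.

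Isg15, chr4:156200860-156200911, minus strand: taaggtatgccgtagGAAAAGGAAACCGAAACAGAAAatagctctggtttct
Rsad2, chr12:26456548-26456587, minus strand: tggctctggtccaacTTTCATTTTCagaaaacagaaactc
Ifit1, chr19:34640770-34640828, plus strand: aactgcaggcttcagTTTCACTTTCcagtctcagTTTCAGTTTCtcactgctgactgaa

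The Isg15 stretch held 3 matches that overlap each other, from 78 to 57 bases before the start. Ifit1 held 2 separate matches between 104 and 76 bases before the start, and Rsad2 held 1, from 120 to 111. Of all 27025 genes in the promoter table, 3.99% had such a match in a window. In the other gene lists used here, the match was found in 12 of 26 other type I response genes with a window, in 9 of 9 IFN-γ inducible GTPase genes, in 3 of 6 genes of the Ifitm family and Bst2, and in 11 of 19 type I and III IFN ligand genes, which were at or near 0 FPKM in these libraries. It was found in 2 of 10 sensor and adaptor genes, Ddx58 and Ifih1, which are also in the list of other type I genes. It was in 1 of 6 receptor and transducer genes and in 1 of 6 T and NK cell marker genes, and in the ISG15 cycle in Isg15 alone. It was in none of the other cell marker lists, such as the 7 macrophage marker genes with a window, and in 0 of 8 housekeeping genes. The core of the element through which IFN-γ is known to act, TTC, any 3 bases and GAA, which reads the same on both strands, occurred in 1 of the 6 genes, Ifit2, and in 9.55% of all genes. In the other lists of the pathway it was found in 6 of 9 GTPase genes and 3 of 6 genes of the Ifitm family and Bst2. It was in 9 of 19 ligand genes, 4 of 26 other type I response genes and 2 of 6 receptor and transducer genes. Ifng, the gene of IFN-γ, had it as well, and 0 of 10 sensor and adaptor and 0 of 4 ISG15 cycle genes did. Among cell markers it was in 2 of 6 T and NK cell genes and 1 of 7 macrophage genes. It was also in 1 of 5 monocyte and 1 of 5 plasmacytoid dendritic cell genes, and in none of the remaining marker and housekeeping genes. These are matches of letters and not measured binding.

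The 10 genes were expressed at low levels in sham cartilage. In young sham cartilage they ranged from 0.257 to 10.4 FPKM with a median of 1.14, and 8 of the 10 were below 2 FPKM. In adult sham cartilage they ranged from 0.194 to 3.86 FPKM with the same median of 1.14, and 9 were below 2 FPKM. In young injured cartilage the range was 1.42 to 39.5 FPKM with a median of 11.8, and in adult injured cartilage 0.803 to 10.7 FPKM with a median of 3.01. Isg15 was the most abundant of the 10 in every library and made up 42.2% (sham) and 32.4% (injured) of their summed FPKM in young mice and 30.9% and 26.8% in adult mice. Mx1 and Mx2 were the 2 lowest in both sham libraries and in adult injured cartilage, and in young injured cartilage Ifit2 lay between them. The summed FPKM of the 10 genes was 24.6 (sham) and 122 (injured) in young mice and 12.5 and 39.8 in adult mice. Every gene was higher in the injured than in the sham library of the same age, and every gene was highest in young injured cartilage.

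**Figure D1:**
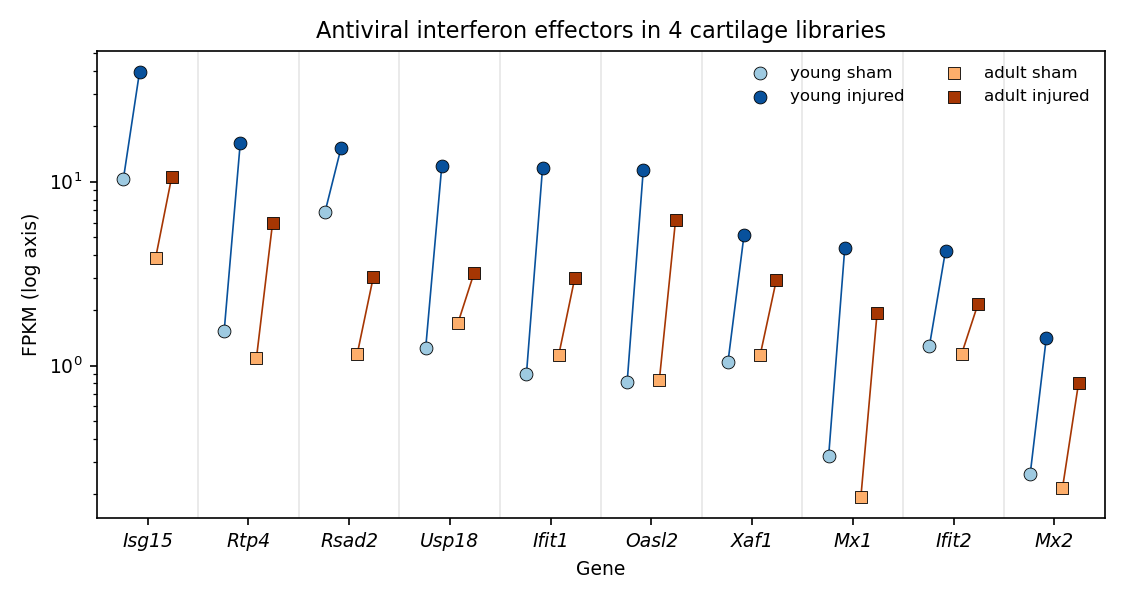
FPKM (log axis) of each of the 10 genes in the 4 libraries, ordered by the level in young injured cartilage; each point is 1 library and lines join sham to injured cartilage of the same age. Young injured cartilage (dark circles) holds the highest value of every gene, from 1.42 FPKM for Mx2 to 39.5 FPKM for Isg15.

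The size of a change is given as the log2 ratio of FPKM + 1, in which the changes of low genes look smaller than they are, and a gene was counted at a ratio of 1 or more, that is 2-fold. In young mice 9 of the 10 genes were at least 2-fold higher in injured than in sham cartilage, where 4.57% of all 18181 genes above 0 in at least 1 library were. The median log2 ratio of the 10 genes was 1.93, against 0 for all genes. In adult mice 4 of the 10 genes, Isg15, Mx1, Oasl2 and Rtp4, were at least 2-fold higher, where 6.9% of all genes were, and the median was 0.90 against 0.14. None of the 10 was 2-fold lower at either age, where 1.27% of all genes were in young and 1.46% in adult mice. The adult count depended on the value added before the logarithm. With 0.1 FPKM in place of 1 it was 8 of 10 (15.9% of all genes), and with 5 FPKM 0 of 10 (2.39%). The young count was 10 (9.99%) and 5 (1.89%) in the same settings.

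Isg15 and Usp18 belong to the same cycle. Isg15 (chromosome 4, 156199424 to 156200818 on GRCm38.p6) encodes a ubiquitin-like protein that is attached to other proteins. It measured 10.4 (sham) and 39.5 FPKM (injured) in young mice and 3.86 and 10.7 FPKM in adult mice. Its level in adult injured cartilage was therefore close to that of uninjured young cartilage, and the log2 ratios after injury were 1.83 in young and 1.26 in adult mice. Usp18 (chromosome 6, 121245906 to 121270917) encodes the protease that removes ISG15 from proteins and also dampens signalling at the type I IFN receptor. It measured 1.24 (sham) and 12.2 FPKM (injured) in young mice and 1.70 and 3.19 FPKM in adult mice. The 2 sham libraries were similar and the young injured library stood apart, with log2 ratios of 2.56 (young) and 0.63 (adult). Usp18 had the largest difference between the ages of the 10 genes, 1.92.

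The enzymes that attach ISG15 were compared with these 2 genes. Uba7, the activating enzyme, measured 3.58 (sham) and 10.1 FPKM (injured) in young mice and 2.01 and 4.91 FPKM in adult mice, with log2 ratios after injury of 1.28 and 0.97. Ube2l6, the conjugating enzyme, was at 45.0, 78.2, 11.5 and 16.0 FPKM in that order. Ube2l6 was lower in both adult libraries than in both young ones, whereas the adult injured level of Isg15 was slightly above its young sham level. Herc6, the main ISG15 ligase of the mouse, was between 0.94 and 2.34 FPKM in all 4 libraries, with log2 ratios of 0.53 and 0.54.

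Ifit1, Ifit2 and Oasl2 encode proteins of families that recognise RNA. Ifit1 (chromosome 19, 34640889 to 34650009), whose product binds RNA that lacks the methyl groups of the host's cap, measured 0.897 (sham) and 11.9 FPKM (injured) in young mice and 1.14 and 3.00 FPKM in adult mice. The young injured library was the highest by far, adult injured cartilage was above both shams, and the difference of the log2 ratios between the ages was 1.86. Ifit2 (chromosome 19, 34550550 to 34576534), a relative of Ifit1 that lies 64.4 kb from it, was at 1.28, 4.23, 1.16 and 2.15 FPKM in that order. Its log2 ratios of 1.20 and 0.54 were smaller than those of Ifit1 at both ages. Oasl2 (chromosome 5, 114896926 to 114912245), a relative of the 2′-5′ oligoadenylate synthetases that activate RNA cleavage, was at 0.816, 11.6, 0.840 and 6.18 FPKM. It had the largest ratio of the 10 genes at both ages, 2.80 in young and 1.96 in adult mice.

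Rsad2 (chromosome 12, 26442743 to 26456452) encodes viperin, an enzyme that makes a chain-terminating nucleotide against viral polymerases. It measured 6.81 (sham) and 15.3 FPKM (injured) in young mice and 1.15 and 3.03 FPKM in adult mice. Both young libraries were above both adult libraries, and the ratios after injury were close to each other, 1.06 in young and 0.90 in adult mice. Without a value added to the FPKM, the adult change was the larger one, 2.63-fold against 2.24-fold. The neighbouring gene Cmpk2, which lies 12.7 kb from Rsad2 and encodes a kinase that supplies nucleotides, had the same order of libraries, with 1.63 (sham) and 4.05 (injured) in young mice and 0.43 and 1.25 FPKM in adult mice. Cmpk2 was named here after its values had been seen.

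Mx1 and Mx2 encode dynamin-like GTPases that block viral replication in the nucleus and in the cytoplasm. C57BL/6 mice carry defective alleles of both, and the RefSeq table of this assembly lists both as transcribed pseudogenes, so that the values are transcript levels without an annotated intact protein. Mx1 (chromosome 16, 97447035 to 97462906) measured 0.324 (sham) and 4.38 FPKM (injured) in young mice and 0.194 and 1.92 FPKM in adult mice. Mx2 (chromosome 16, 97536081 to 97560901) was at 0.257, 1.42, 0.215 and 0.803 FPKM. Both were higher in the injured than in the sham libraries and higher in young than in adult injured cartilage. The added 1 FPKM weighs most on these 2 genes. Mx1 had log2 ratios of 2.02 and 1.29, while its plain FPKM ratios were 13.5-fold in young and 9.91-fold in adult mice, the largest of the 10 genes in adult mice. Mx2 had log2 ratios of 0.94 and 0.57 and plain ratios of 5.51-fold and 3.74-fold. Of the 31-base words in their transcripts, 8.12% of those of Mx1 and 7.96% of those of Mx2 occurred in other genes. Mx1 shared the most words with Mx2, and Mx2 shared its words with Mx1 alone.

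Xaf1 and Rtp4 were the remaining members. Xaf1 (chromosome 11, 72301461 to 72313733), whose product binds the apoptosis inhibitor XIAP, measured 1.04 (sham) and 5.14 FPKM (injured) in young mice and 1.14 and 2.92 FPKM in adult mice. Its log2 ratios were 1.59 and 0.87. Rtp4 (chromosome 16, 23520219 to 23614222), named for its help in the transport of receptors to the cell surface, was at 1.54, 16.3, 1.09 and 5.94 FPKM in that order. This made it the second most abundant of the 10 genes in young injured cartilage, after Isg15, and its log2 ratios of 2.77 and 1.73 were the second largest at both ages. Rtp4 shared 12.5% of its 31-base words with a single other gene model and Isg15 shared 12.8% with others, the highest shares of the 10 genes. Ifit1 came next with 10.5%, shared with 31 other genes and most with Ifit1bl2.

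The injury ratios were then compared between the ages. For each of the 10 genes the ratio was larger at the younger age, with a median difference of 0.72, where all 18181 genes had a median of −0.12. The difference was 1 or more for 3 of the 10 genes, Usp18, Ifit1 and Rtp4, where 1.64% of all genes reached it, and no member had −1 or less, as 4.6% of all genes did. Rtp4 passed it at 1.04 and did not with 0.1 FPKM (0.98), 5 FPKM (0.86) or nothing added (0.96) or on the TPM scale, with each library rescaled to an equal FPKM total (0.83), which left 2 genes, and Oasl2 reached 1.08 after quantile normalization, which made 4. The shares of all genes in these settings were 5.29%, 0.699%, 5.99%, 1.74% and 2.67%. The smallest differences were those of Rsad2 (0.15), Mx2 (0.37) and Isg15 (0.57). The sign for Rsad2 depended on the calculation. It was −0.18 on the TPM scale, −0.17 with 0.1 FPKM added and −0.23 with nothing added. The other 9 genes kept the larger ratio in young mice in each of these and in the remaining ways of scaling. Across the 10 genes, then, the adult ratio ranged from near the young one to well below it. The adult ratios rest on a sham library labelled days 3 to 14, and the young ratios on a sham of day 3. Age and the days of the sham cannot be told apart in these differences. In plain FPKM ratios, Usp18 changed 9.81-fold in young and 1.87-fold in adult mice and Ifit1 13.2-fold and 2.64-fold, whereas Isg15 changed 3.81-fold and 2.76-fold.

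**Figure D2:**
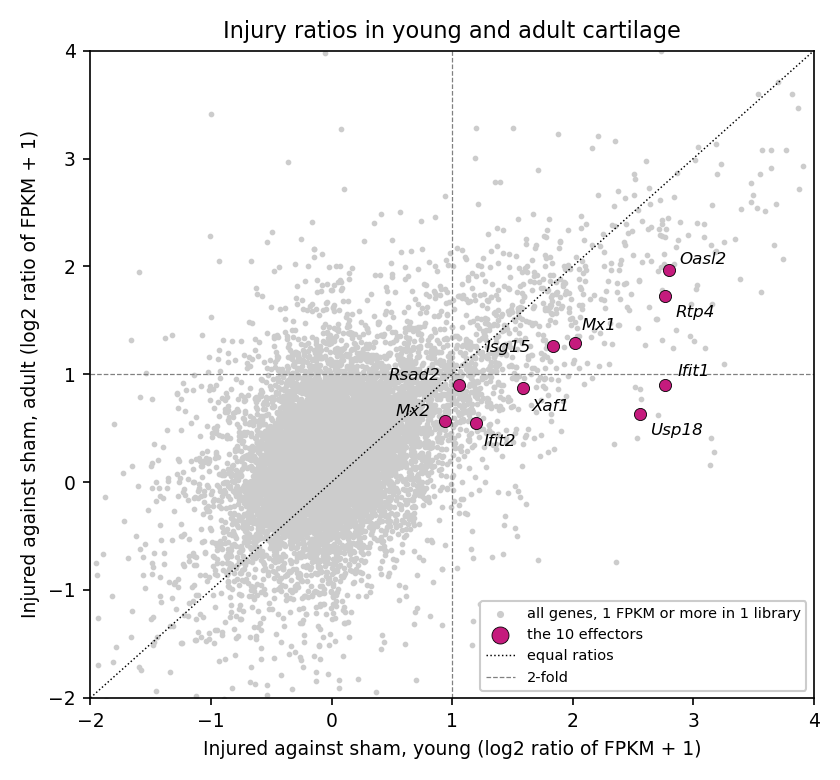
Log2 ratios of FPKM + 1 of injured against sham cartilage in young (x axis) and adult mice (y axis); grey points are all genes with 1 FPKM or more in at least 1 library and within the axes, dashed lines mark 2-fold and the dotted line equal ratios. All 10 genes lie below the dotted line, Usp18 and Ifit1 farthest, with differences of 1.92 and 1.86.

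The general level of the libraries was taken into account. Over the 10891 genes that reached 1 FPKM in every library, injury moved the median by −0.04 in young and 0.23 in adult mice on the log2 scale, and dividing each library by the median of its ratios to the geometric mean of the 4 (median-of-ratios scaling) brought both to about the same value, −0.05 and −0.06. After this scaling the 10 genes had median ratios of 1.87 (young) and 0.71 (adult). Quantile normalization, after which the sorted values are equal in all libraries, gave medians of 1.85 and 0.56. Isg15 was no longer 2-fold higher in adult mice under either, with log2 ratios of 0.98 and 0.90. This left 3 of the 10 genes at 2-fold in both (4.41% and 3.99% of all genes). The TPM scale went the other way, with general medians of −0.15 (young) and 0.34 (adult). On it 7 of the 10 genes were 2-fold higher in adult mice (11% of all genes).

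**Figure D3:**
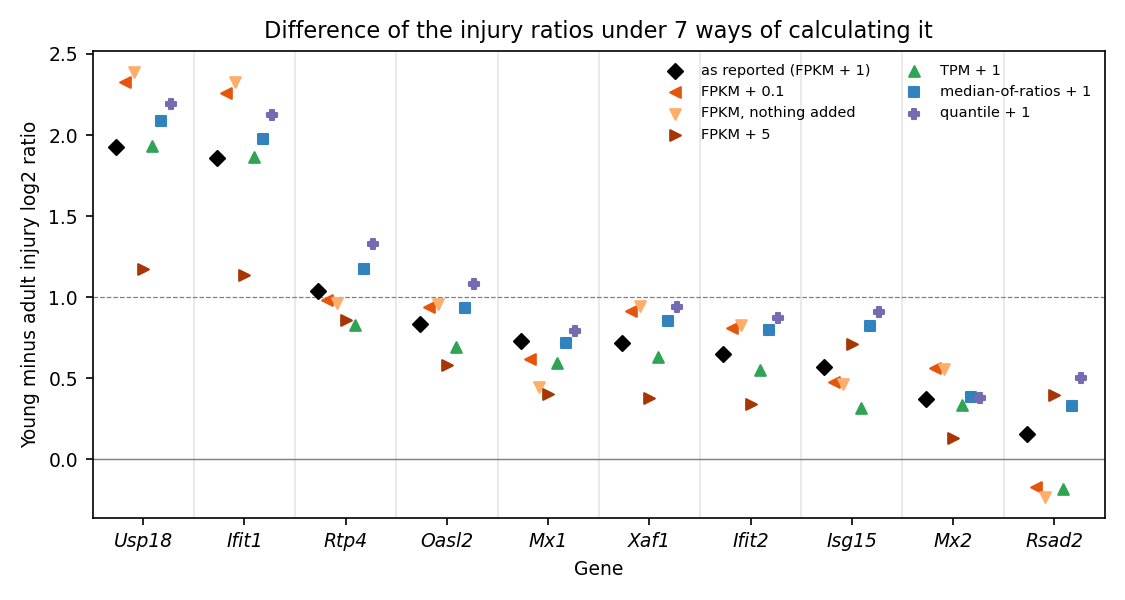
Young minus adult injury log2 ratio of each of the 10 genes (y axis) as reported, with another or no added value, and after 3 ways of rescaling the libraries; the dashed line marks a difference of 1. Only Rsad2 falls on both sides of 0, from −0.23 to 0.50, and Usp18 and Ifit1 stay above 1 throughout.

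The levels themselves were compared between the ages. In injured cartilage the young library exceeded the adult one for all 10 genes. At least 2-fold higher were 5 of them, Rsad2 (2.01), Isg15 (1.80), Ifit1 (1.69), Usp18 (1.66) and Rtp4 (1.32, each a log2 ratio), where 3.09% of all genes were, and none was 2-fold lower (1.8% of all genes). The median was 1.10, against 0.04 for all genes. In sham cartilage the genes divided. Rsad2 and Isg15 were 2-fold or more lower in adult than in young mice, with log2 ratios of −1.86 and −1.23, a threshold that 10.6% of all genes passed. The other 8 genes lay between −0.28 and 0.27, 4 of them above 0 and 4 below, and none was 2-fold higher in adult mice (2.66% of all genes). The age difference of Rsad2 and Isg15 in injured cartilage was thus also present in sham cartilage, whereas for Usp18 and Ifit1 it was seen in injured cartilage alone. After median-of-ratios scaling Rsad2 alone passed 2-fold between the shams (5.13% of all genes).

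**Figure D4:**
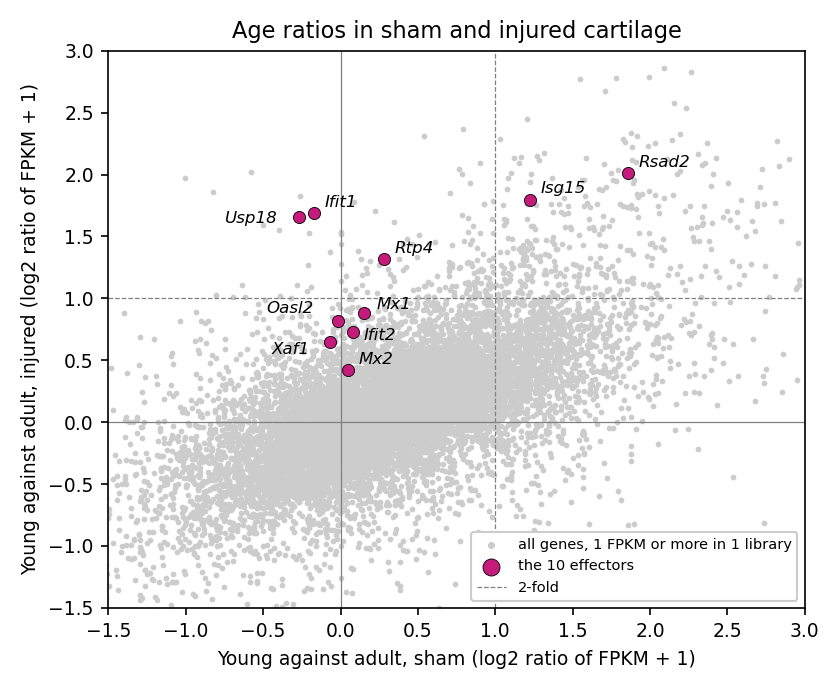
Log2 ratios of FPKM + 1 of young against adult mice in sham (x axis) and injured cartilage (y axis) for the 10 genes and for all genes with 1 FPKM or more in at least 1 library (grey, those within the axes); dashed lines mark 2-fold. Rsad2 and Isg15 are beyond 2-fold on both axes, and Usp18, Ifit1 and Rtp4 only in injured cartilage.

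The upstream part of the pathway was examined in the same libraries. Of 20 genes of type I and type III IFN ligands, 15 were listed at 0 in all 4 libraries and none reached 1 FPKM. Ifnb1, the first type I IFN made by most cells, was listed at 0 in 3 libraries and at 0.05 FPKM in young injured cartilage, and Ifna1 and Ifna4 were listed above 0 in adult injured cartilage only, at 0.07 and 0.06 FPKM. Ifna6 was listed above 0 in adult sham cartilage only, at 0.06 FPKM. Ifnb1 was named after its values had been seen. Ifnz was the highest of the list, with values from 0.05 to 0.12 FPKM. Ifng, which encodes the type II IFN, was listed at 0 in 3 libraries and at 0.03 FPKM in adult injured cartilage. Ligand mRNA was thus below 1 FPKM or listed at 0 in every library, and the libraries cannot show which ligand, if any, was made before day 3 or in few cells.

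The receptor genes were present in every library. With the signal transducers they had median log2 ratios after injury of 0.47 and 0.42, where the effectors had 1.93 and 0.90. Ifnar1 measured 9.71 (sham) and 10.7 FPKM (injured) in young mice and 8.09 and 10.6 FPKM in adult mice, and Ifnar2 was at 30.2, 42.3, 31.6 and 42.2 FPKM. Neither receptor gene reached 2-fold after injury at either age. Irf9 had ratios of 1.08 and 0.94, Stat2 0.79 and 0.84, and Jak1 0.39 and 0.42. The median difference between the ages was 0.07 for the 7 receptor and transducer genes, where it was 0.72 for the effectors.

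Sensors of nucleic acid and their adaptors, which start the response, included no gene that differed 2-fold between the ages in sham or in injured cartilage on the scale of FPKM + 1. In plain FPKM, Tlr9 and Tlr7 were 3.56-fold and 2.17-fold higher in young than in adult sham cartilage, at levels below 1 FPKM. Tlr9 was named after its values had been seen. Of 12 such genes in the table, 4 were at least 2-fold higher after injury in young mice and 3 in adult mice, and the median difference between the ages was 0.07. Irf7, the factor that amplifies type I IFN production and is itself induced by IFN, differed most, at 5.46 (sham) and 32.7 FPKM (injured) in young mice and 5.47 and 16.7 FPKM in adult mice. Tlr7, a receptor for single-stranded RNA, had log2 ratios of 1.77 and 1.32. Tmem173, which encodes the adaptor STING, had 1.92 and 1.84, the largest of the list in adult mice, and was named after its values had been seen. Mavs and Irf3, an adaptor and a transcription factor of the pathway that are not known as IFN-induced genes, had ratios of −0.20 and 0.07 in young and −0.18 and −0.09 in adult mice.

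Other genes of the type I response were read from a list of 35, all of them in the table. At least 2-fold higher after injury were 23 in young and 16 in adult mice, none was 2-fold lower, and the medians were 1.63 and 0.88. For 29 of them the ratio was larger at the younger age, by 1 or more for 7. Ifi27l2a, which had the highest mean level of the list but was below Lgals3bp in 3 of the 4 libraries, measured 12.0 (sham) and 86.0 FPKM (injured) in young mice and 20.9 and 53.6 FPKM in adult mice. Ifit3 and Ifit3b, which lie in the same cluster as Ifit1 and Ifit2 and are near-identical copies whose single values are uncertain, summed to 2.96, 34.4, 14.1 and 18.0 FPKM in that order. This pair was more than 2-fold higher in the adult than in the young sham library, where Ifit1 and Ifit2 had log2 ratios of 0.17 and −0.08. The largest differences towards adult mice were those of Sp100 (1.42 in young and 2.12 in adult mice) and Eif2ak2 (0.53 and 0.88), 2 genes that were also more than 2-fold lower in adult than in young sham cartilage. Ifi35 and Tor3a, 2 of the more abundant genes of the list, had log2 ratios below 1 at both ages.

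The effectors were set beside 2 related groups. The 14 IFN-γ inducible GTPase genes of the Gbp and Irg families had medians of 0.98 (young) and 0.95 (adult), 6 of them at least 2-fold higher at each age and none with a difference between the ages of 1 or more. Irgm1, the most abundant, measured 8.11 (sham) and 18.2 FPKM (injured) in young mice and 6.92 and 10.8 FPKM in adult mice. Gbp2 was higher in adult than in young injured cartilage, at 6.24 against 3.77 FPKM. The 6 genes of the Ifitm family and Bst2 had medians of 1.12 and 0.56, and 3 of them, Ifitm3, Bst2 and Ifitm6, had ratios larger in young mice by 1 or more. In the direct comparison of injured cartilage, 5 of 10 effectors, 2 of 35 other type I genes, 0 of 14 GTPase genes and 1 of 6 genes of the Ifitm family and Bst2 were at least 2-fold higher in young mice, beside the 3.09% of all genes. The 1 gene of the last group was Ifitm10, which was also higher in young than in adult sham cartilage (52.6 against 13.3 FPKM). These groups were not tested against each other, since their genes are not replicates of a condition.

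**Figure D5:**
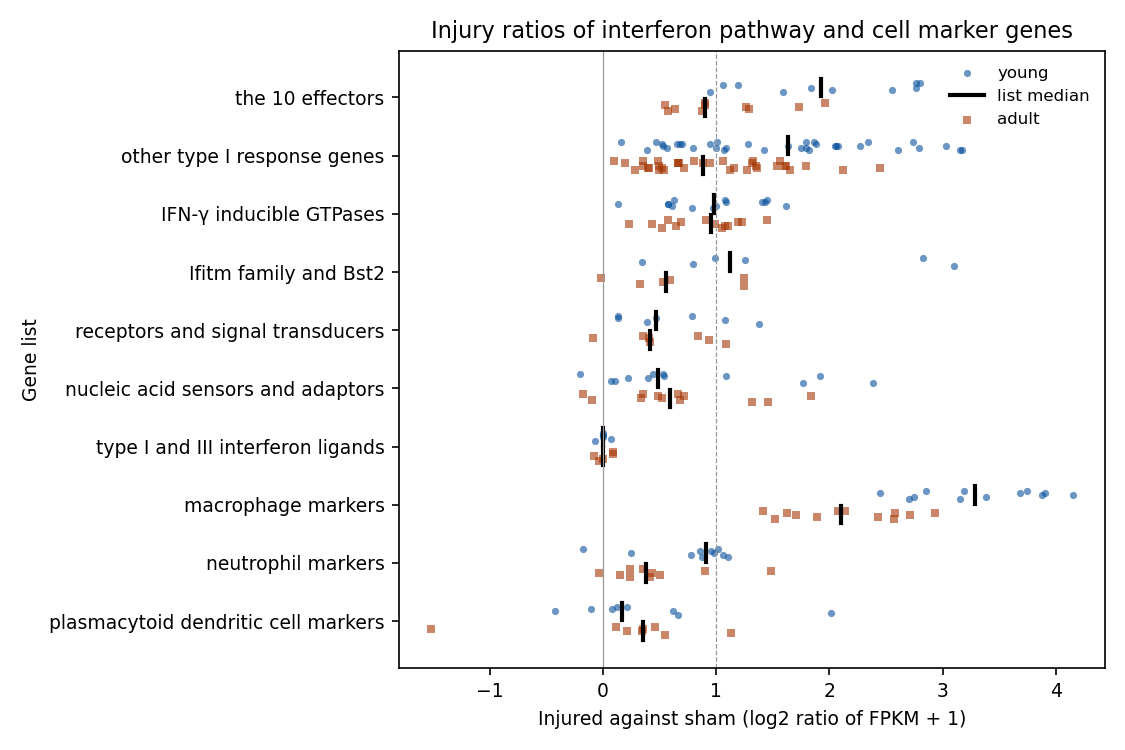
Log2 ratios of FPKM + 1 of injured against sham cartilage (x axis) for the genes of 10 lists (y axis) that were above 0 in at least 1 library; circles are young and squares adult mice, and bars are list medians. The effectors have medians of 1.93 and 0.90, the GTPase genes 0.98 and 0.95, and the ligand genes medians of 0.

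Levels of cell markers were read beside these values, since fewer cells of a type and less RNA per cell cannot be told apart in bulk tissue. All 12 macrophage marker genes were at least 2-fold higher after injury at both ages, and none was listed at 0 in any library. Their summed FPKM was 196 (sham) and 1956 (injured) in young mice and 328 and 1680 in adult mice, so that the sum was 1.16 times as high in young as in adult injured cartilage, where that of the 10 effectors was 3.07 times as high. Lyz2 alone gave 1271 FPKM of the young injured sum, and the young to adult ratio in injured cartilage ranged over the 12 genes from 0.508 (Cd14) to 2.82 (Mrc1). In the sham libraries the macrophage sum was lower in young than in adult mice, 0.597 times, and that of the effectors was 1.97 times as high. The effector sums of the shams differed through Isg15 and Rsad2, and the median log2 ratio of adult against young sham over the 10 genes was −0.06. C1qb and Adgre1, which mark macrophages, had log2 ratios after injury of 4.15 and 3.74 in young and 1.71 and 2.07 in adult mice. All 12 macrophage genes thus had the larger injury ratio in young mice, as the effectors did. Of 6 monocyte marker genes, summing to 64.8, 164, 55.2 and 150 FPKM, 2-fold or more after injury was reached by 4 at the younger age and by all 6 in adult mice. The 10 neutrophil marker genes summed to 1228, 2502, 1622 and 1958 FPKM, and 3 and 1 of them were at least 2-fold higher. The 8 marker genes of plasmacytoid dendritic cells, which make much type I IFN, summed to 59.3, 64.2, 49.7 and 43.8 FPKM. After injury 1 of them, Lair1, was at least 2-fold higher at each age (log2 ratios of 2.01 and 1.13) and 1, Cox6a2, was 2-fold lower in adult mice (−1.52). Cox6a2 is also a gene of striated muscle, and Tcf4 and Ly6d, which had the highest mean levels of the list, are expressed by other cells as well. Siglech stayed between 0.33 and 0.71 FPKM and Ccr9 between 0.02 and 0.15 FPKM. The 8 T and NK cell marker genes summed to 2.72, 6.35, 2.13 and 9.72 FPKM, 2 of them, Nkg7 and Gzma, reached 2-fold after injury in adult mice and 0 at the younger age, and Cd3g was listed at 0 in young sham and Cd3e and Klrd1 in adult sham cartilage. The part of these cells in the effector values was not tested.

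The labelled tissue was checked by 9 chondrocyte marker genes in the table. Col2a1, the main collagen of cartilage, measured 9349 (sham) and 7903 FPKM (injured) in young mice and 3173 and 3750 FPKM in adult mice, and Acan was at 405, 487, 214 and 559 FPKM. Matn1 differed most, at 1661 FPKM in the young and 2.65 FPKM in the adult sham library. Comp measured 1324 (sham) and 1984 FPKM (injured) in young mice and 7203 and 4611 FPKM in adult mice. Of the 9 genes it alone was higher in adult than in young sham cartilage. Skeletal muscle marker genes were present as well, 6 of 6 in every library, with sums of 481, 488, 1120 and 333 FPKM. The FPKM of all genes summed to between 469939 and 533468 per library, and 7457 to 8390 genes were listed at 0.

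Genes outside the group were ranked by how close their pattern was to the mean pattern of the 10 effectors, as the Euclidean distance between log2(FPKM + 1) values centred over the 4 libraries, among genes with at least 5 FPKM in 1 library. The mean pattern was −0.60 (sham) and 1.35 (injured) in young mice and −0.91 and 0.16 in adult mice. The nearest gene was Npl, which encodes a lyase of sialic acid, at 0.951, 5.67, 0.659 and 2.24 FPKM and a distance of 0.187. The next were Trim30a, Ifi203, Sash3, Parp14, Lpl, Runx1, B430306N03Rik, Gm5483 and Phf11b, at distances from 0.325 to 0.411. All 10 were highest in young injured cartilage and second highest in adult injured cartilage, an order that follows from their choice by this pattern. The effectors themselves lay between 0.291 (Mx1) and 1.35 (Rsad2) from their own mean, so that the 10 named genes were closer to it than 9 of its own members. With 4 libraries such distances are a description only.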

How the data were processed

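Cartilage RNA of 4 pools was sequenced from stranded, poly-A selected libraries. The authors deposited 1 FPKM value per gene and library on mm10. HISAT2 2.1.0, HISAT, StringTie 1.3.4d, STAR and SAMtools stand in the submitters' processing notes without their roles. All 24532 genes were read, and columns were matched to libraries by name. The 4 comparisons and the difference of the 2 injury ratios were taken as log2 ratios of FPKM + 1 over 18181 genes above 0 in 1 library or more, and 2-fold was the threshold. No test was run, since each group was 1 library, and therefore no SD can be given. The members and lists were chosen with earlier results of these data known. Named genes were the members, all genes of short lists, the most abundant and most divergent genes of lists over 10 genes, and the 10 nearest patterns; others are marked. Depth was read from steps of low FPKM × transcript length over 17292 genes with 1 listed transcript. Reading 1 step as 1 fragment would put the libraries at 2.57e+07 to 3.08e+07 fragments. Only 43.5% to 45.2% of low values lay within 0.1 of a whole step, so fragment numbers were not recovered and no counting error is given. Shared sequence was measured in 31-base words of GENCODE M21 transcripts. Promoter windows came from RefSeq (GRCm38.p6). Symbols of 4 list genes were not matched, and 1 gene is not reported here. Alternatives were a threshold of 1.5-fold or 3-fold, an added value of 0.1 or 5 FPKM, a filter at 1 FPKM, quantile normalization, TPM and scaling by the median of ratios. FPKM with nothing added was chosen after seeing the data. The calculations were tested on simulated data, with changes put only into genes of a higher mean level than any of the 10 effectors. Recovery of changes at the levels of the effectors was not tested. Python 3.11.15, numpy 2.4.6, pandas 2.3.3 and matplotlib 3.10.9 were used.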

Additional observations from a re-analysis of the deposited data

Results flagged for a closer look

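Marker genes of 2 tissues had different median log2 ratios after injury at the 2 ages. For the 9 chondrocyte marker genes the median was −0.28 at the younger age and 0.44 in adult mice. For the 6 skeletal muscle marker genes it was 0.0124 at the younger age, with 3 genes above and 3 below 0, and −1.32 in adult mice, with all 6 below 0. The young muscle median is near 0 and its sign carries no direction. The differences between the ages were not tested, since each group was 1 library. Each of the 10 antiviral effectors was higher after injury at both ages.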

How the results depend on the processing

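No paired analysis was possible because each group was 1 library, and for the same reason no replicate could be left out. Every one of the 10 genes was higher in injured than in sham cartilage at both ages, and higher in young than in adult injured cartilage, under all alternatives run, whereas the signs of small differences changed 5 times between the shams and 3 times for the difference of the injury ratios, the latter all for Rsad2. With 0.1 FPKM added, the median ratio was 2.70 (young) and 1.38 (adult), with 8 genes 2-fold higher in adult mice (15.9% of all genes). With 5 FPKM added, 5 genes were 2-fold higher in young mice (median 1.14), 0 in adult mice and 0 lower in adult than in young sham cartilage (1.89%, 2.39% and 3.69% of all genes), and the median of young against adult injured cartilage was 0.77. With nothing added, the medians were 2.88 (young) and 1.43 (adult), with 8 genes 2-fold higher in adult mice (19.1% of all genes). On the TPM scale 7 genes were 2-fold higher in adult mice (median 1.18; 11% of all genes). Between the shams, 1 gene was 2-fold lower in adult mice after median-of-ratios scaling (median 0.10; 5.13%) and 1 after quantile normalization (median 0.16; 5.27%), and the median of young against adult injured cartilage was 0.99 after median-of-ratios scaling. A threshold of 1.5-fold gave 8 genes for injury in adult mice, 9 for young against adult injured cartilage and 7 for the difference of the injury ratios (17.9%, 9.78% and 5.13% of all genes). A threshold of 3-fold gave 2 genes for injury in adult mice and 1 for the shams (2.43% and 2.78%). The moves with the added value and with the threshold follow from their construction. The TPM total is larger than the FPKM total of each library, so that the added 1 also weighs less on that scale. How much of the TPM moves this makes up was not tested, nor was the cause of the others.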
